A study of Mus musculus with 23 samples.

Results

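Tdo2, Unc13c, Net1 and Sh3bgr are 4 autosomal genes, of 13766 genes measured in mouse hippocampus, whose RNA differed between mice with XY and mice with XX sex chromosomes. They were chosen on that difference: of 22 autosomal genes called for XY against XX by the quasi-likelihood test of edgeR with p adjusted by the Benjamini-Hochberg method, they were picked as ones outside the interferon response. The XY against XX values below are therefore a description of what chose them, and only the effect of the gonads, its dependence on the sex chromosomes and the variation between mice of 1 group were tested. Tdo2, Net1 and Sh3bgr had more RNA in XY hippocampus, at 1.54, 1.28 and 2.01 times the XX mean, and Unc13c had less, at 0.692 of the XX mean.

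The mice were FCG mice, a model of 4 genotypes in which the testis-determining gene Sry is lost from the Y chromosome and carried on an autosome, so that gonads and sex chromosomes are inherited separately. All were on a C57Bl/6J background and were killed at about 12 months of age. There were 4 groups, 1 library per animal: XX with ovaries (XXF, 5 libraries), XX with testes (XXM, 6), XY with ovaries (XYF, 6) and XY with testes (XYM, 6). Pups were caged by the look of their genitals, so cage and gonads cannot be told apart, and every mouse with testes also carries the Sry transgene.

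The genes work in unrelated pathways. Tdo2 encodes tryptophan 2,3-dioxygenase, which opens the indole ring of tryptophan in the first step of the kynurenine pathway. It is best known as a liver enzyme, and in the mouse hippocampus its RNA marks mature granule cells of the dentate gyrus. Unc13c encodes Munc13-3, a member of the Munc13 family that readies synaptic vesicles for fusion, best known from cerebellar granule cells. Net1 encodes a guanine nucleotide exchange factor that switches on the small GTPase RhoA, which controls the actin cytoskeleton. Sh3bgr encodes a small protein of the thioredoxin fold, from a family named for an SH3-binding motif and a glutamic-acid-rich stretch.

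The 4 genes lie on 4 chromosomes, in the coordinates of the deposited table, whose positions fit the GRCm38 (mm10) build. Tdo2 (gene 56720) spans chr3:81958414-81975728 on the minus strand, Unc13c (208898) chr9:73479424-73933567 on the minus strand, Net1 (56349) chr13:3882561-3918220 on the minus strand, and Sh3bgr (50795) chr16:96200470-96228933 on the plus strand. In the GENCODE annotation no gene on the opposite strand overlaps any of them, and no other gene shares their exons. The promoters are shown because the genes differ in how they start: RefSeq gives Net1 2 start sites, 24.6 kb apart, whose reads a count per gene adds together. RefSeq (GRCm38.p6) sequences were matched for 3 of the 4 genes, Sh3bgr being the other. Each runs from 250 bases before the start through its first 50 bases, 5′ to 3′ on the gene's strand, and capitals mark matches to the motifs named after them.
Tdo2, chr3:81975679-81975978, minus strand: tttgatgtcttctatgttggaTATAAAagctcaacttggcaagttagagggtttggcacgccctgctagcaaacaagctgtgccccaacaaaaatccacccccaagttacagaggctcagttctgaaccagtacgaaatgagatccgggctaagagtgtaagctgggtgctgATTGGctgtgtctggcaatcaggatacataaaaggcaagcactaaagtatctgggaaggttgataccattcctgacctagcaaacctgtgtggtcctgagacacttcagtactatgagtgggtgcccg
Unc13c, chr9:73968988-73969287, minus strand: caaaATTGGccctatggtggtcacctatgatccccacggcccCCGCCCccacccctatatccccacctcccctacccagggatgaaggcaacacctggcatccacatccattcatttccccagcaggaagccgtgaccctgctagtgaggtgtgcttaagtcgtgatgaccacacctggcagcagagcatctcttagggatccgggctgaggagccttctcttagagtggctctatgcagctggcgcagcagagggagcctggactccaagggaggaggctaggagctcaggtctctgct
Net1 upstream start, chr13:3918171-3918470, minus strand: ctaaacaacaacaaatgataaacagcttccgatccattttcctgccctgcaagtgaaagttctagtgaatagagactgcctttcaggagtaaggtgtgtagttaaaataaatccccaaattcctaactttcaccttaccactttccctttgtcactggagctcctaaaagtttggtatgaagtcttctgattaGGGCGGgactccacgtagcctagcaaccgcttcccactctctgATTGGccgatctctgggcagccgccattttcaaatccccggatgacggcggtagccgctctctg
Net1 downstream start, chr13:3893532-3893831, minus strand: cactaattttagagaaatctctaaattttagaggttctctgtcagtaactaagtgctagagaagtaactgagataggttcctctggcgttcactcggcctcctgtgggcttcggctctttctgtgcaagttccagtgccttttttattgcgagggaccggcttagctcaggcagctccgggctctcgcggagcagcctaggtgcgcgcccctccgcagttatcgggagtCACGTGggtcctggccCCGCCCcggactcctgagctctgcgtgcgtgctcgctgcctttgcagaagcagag

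With the first transcribed base counted as 1 and the base before it as -1, the Tdo2 promoter held TATAAA from -229 to -224 and CCAAT, on the opposite strand, from -78 to -74. The Unc13c promoter held CCAAT from -246 to -242 and GGGCGG from -208 to -203, both on the opposite strand; its RefSeq start lies 35.5 kb beyond the end of the gene's record in the deposited table. The upstream Net1 start had GGGCGG from -57 to -52 and CCAAT, on the opposite strand, from -14 to -10. The downstream Net1 start had CACGTG, an E-box, from -21 to -16 and GGGCGG, on the opposite strand, from -5 to 1. Both strands were searched, and of 32851 RefSeq promoters of this length 13.6% hold TATAAA, 37.4% CCAAT, 35.7% GGGCGG and 7.15% CACGTG. No match was found in these windows to the cyclic AMP response element TGACGTCA (1.79% of promoters), the full glucocorticoid response element (0.00913%) or the core of the interferon-stimulated response element (3.44%). The downstream Net1 window was the richest in CpG of the 4, with 18 CpG dinucleotides, against 10 at the upstream start, 6 for Unc13c, 4 for Tdo2 and a median of 7 over all promoters.

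Library totals ran from 10257751 to 36078221 estimated counts. Levels are given in CPM, counts per 1000000 counts of the normalized library total. Xist, which is transcribed from the inactive X chromosome, was at 936 CPM or more in XX libraries and at 2.86 CPM or less in XY libraries, except XYF replicate 4 at 94.1 CPM. In that library Tdo2 (6.99 CPM) was at the low end of the XY libraries, Unc13c (41.2 CPM) and Sh3bgr (3.45 CPM) were the highest of them, and Net1 was at 46.7 CPM. Without it the XY minus XX log2 differences were 0.70 for Tdo2, -0.59 for Unc13c, 0.36 for Net1 and 0.98 for Sh3bgr, beside 0.66, -0.54, 0.36 and 1.02 with it. Markers of dentate granule cells, CA1 and CA2 and CA3 pyramidal cells, the cells that define the hippocampus, were present in every library, at 544, 613 and 305 CPM or more in sum. In such bulk tissue fewer cells of a type and less RNA per cell cannot be told apart.

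Tdo2 was a low RNA, with 59 to 321 estimated counts per library. The XXF libraries held 7.02, 5.80, 4.11, 4.66 and 4.91 CPM. In XXM the lowest, median and highest libraries were at 4.41, 7.56 and 9.18 CPM. The XX libraries, above all those with testes, thus reached into the XY range. XYF libraries were at 6.99, 8.51 and 12.3 CPM in the same order, and XYM libraries at 8.47, 9.76 and 14.7 CPM. Group means, from the lowest, were 5.30 ± 1.14 in XXF (SD, n = 5), 7.31 ± 1.71 in XXM (n = 6), 9.09 ± 2.23 in XYF (n = 6) and 10.6 ± 2.47 in XYM (n = 6). Of these neighbours in the order, only XXF and XXM differed by more than both of their SDs, and the ranges of every neighbouring pair overlapped. Of the 12 XY libraries, 5 lay above every XX library. The XY minus XX difference was 0.66 on the log2 scale (SE 0.13, 95% interval 0.39 to 0.94), at 0.79 with ovaries and 0.54 with testes.

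Net1 had the smallest SD relative to its mean of the 4 in every group, with 399 to 1572 counts per library. In XXF it was at 34.7, 39.2, 37.3, 36.8 and 38.0 CPM. XXM libraries had a lowest, median and highest value of 32.2, 36.0 and 40.4 CPM, so all XX libraries fell in a narrow band. XYF libraries were at 45.2, 47.2 and 57.8 CPM, and XYM libraries at 38.3, 42.0 and 53.2 CPM. All 6 XYF libraries lay above all 5 XXF libraries, a separation seen in 0.552% of all genes with XY higher and in 0.821% in either direction; with testes the ranges overlapped. Means were 35.9 ± 2.76 in XXM, 37.2 ± 1.67 in XXF, 44.5 ± 6.82 in XYM and 49.2 ± 4.96 in XYF (SD, n = 5 in XXF and 6 elsewhere). The step from XXF to XYM was larger than both SDs, and the steps within XX and within XY were not. XY minus XX was 0.36 on the log2 scale (SE 0.06, 95% interval 0.23 to 0.48), at 0.41 with ovaries and 0.31 with testes.

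Sh3bgr was the least abundant, with 6 to 86 counts per library. Single values carry wide counting intervals: the lowest, XXF replicate 2, rests on 6 counts, with an exact binomial 95% interval of 0.217 to 1.28 CPM that covers counting error only. XXF libraries held 1.02, 0.590, 1.26, 1.29 and 0.966 CPM. XXM libraries had a lowest, median and highest value of 1.01, 1.53 and 1.88 CPM. These 11 XX libraries all lay below 10 of the 12 XY libraries. XYF libraries were at 0.745, 3.11 and 3.45 CPM, and XYM libraries at 1.79, 2.36 and 3.29 CPM. The low XYF library, replicate 3, rested on 10 counts, with an exact interval of 0.357 to 1.37 CPM, and the other 5 XYF libraries lay from 2.40 CPM up. Without it the XY minus XX value was 1.11. Means were 1.03 ± 0.282 in XXF, 1.48 ± 0.324 in XXM, 2.44 ± 0.518 in XYM and 2.69 ± 1.03 in XYF (SD, n = 5 in XXF and 6 elsewhere). The steps from XXF to XXM and from XXM to XYM were larger than both SDs, and that from XYM to XYF was not. XY minus XX was 1.02 on the log2 scale (SE 0.18, 95% interval 0.64 to 1.39), at 1.34 with ovaries and 0.70 with testes.

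Unc13c was the member with less RNA in XY libraries, at 282 to 1570 counts per library. XXF libraries held 38.4, 41.0, 55.7, 40.9 and 42.3 CPM. In XXM the lowest, median and highest values were 33.2, 45.0 and 52.8 CPM. The 2 XX groups covered nearly the same range. XYF libraries were at 18.6, 29.4 and 41.2 CPM, and XYM libraries at 23.5, 27.8 and 37.1 CPM, so that 7 of the 12 XY libraries were below every XX library. Means were 29.6 ± 5.40 in XYM, 30.3 ± 8.71 in XYF, 42.9 ± 7.48 in XXM and 43.7 ± 6.85 in XXF (SD, n = 5 in XXF and 6 elsewhere). Only the step between the XY and XX groups was larger than both SDs. XY minus XX was -0.54 on the log2 scale (SE 0.11, 95% interval -0.77 to -0.31), and -0.54 both with ovaries and with testes.

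**Figure D1:**
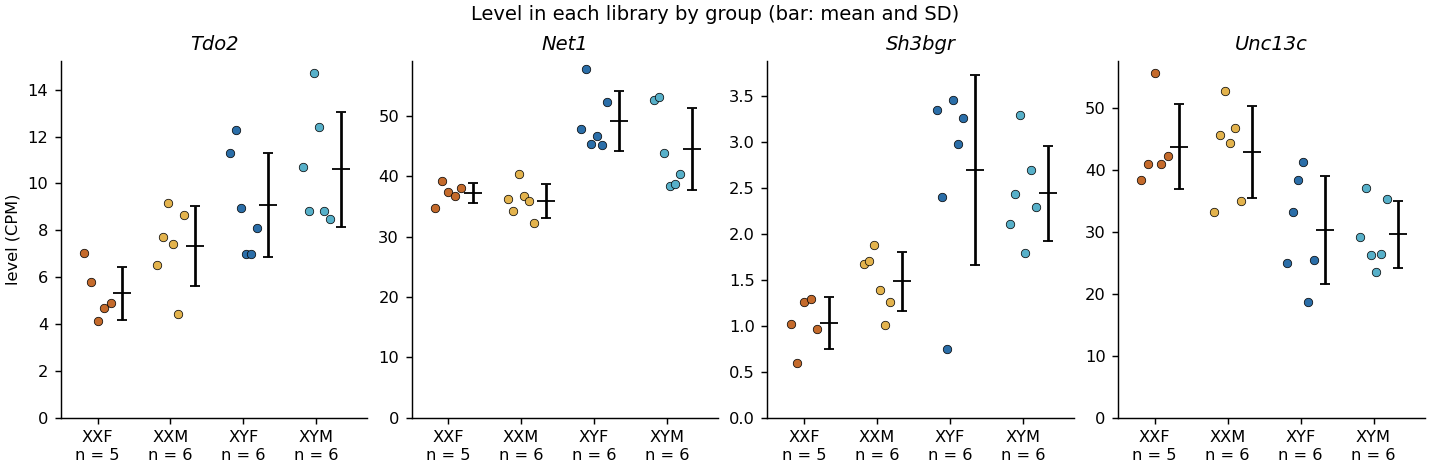
Level of each gene in every library, in CPM, by group. Points are libraries, horizontal lines are group means and vertical bars are SD. XY groups lie higher for Tdo2, Net1 and Sh3bgr and lower for Unc13c, and the XX and XY ranges overlap in every panel.

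Per kilobase of annotated exon, the mean over all 23 libraries was 8.03 CPM per kb for Net1, 4.13 for Unc13c, 2.12 for Tdo2 and 1.24 for Sh3bgr. On this length-scaled level Net1 was the most abundant of the 4 and Sh3bgr the least.

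A midpoint between the XX and XY means of each gene's log2 CPM shows how far single mice follow the group difference. These means were taken on the log2 scale and are not the CPM means given above. Net1 was on the XY side of its midpoint in 0 of 11 XX and 9 of 12 XY libraries, Sh3bgr in 1 and 11, Tdo2 in 3 and 10, and Unc13c in 2 and 9. All 4 genes were on the XY side in 5 XY libraries and 3 of them in another 5, while 7 XX libraries had none there and no XX library had more than 2. The midpoints come from the same libraries and the same contrast that chose the genes, so these counts describe the overlap and test nothing.

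The adjusted p-values that chose the genes in edgeR's quasi-likelihood test were 0.00172 for Net1, 0.00413 for Sh3bgr, 0.0141 for Tdo2 and 0.0222 for Unc13c. In that comparison 0.283% of the 13766 genes were called. Nearest the threshold, Irgm2 (0.0403) and Rsad2 (0.0430) were just inside and Ctss (0.0509) and Nptx2 (0.0510) just outside, with log2 differences of 0.50, 0.75, 0.33 and 0.30. Net1 and Tdo2 stayed inside in 30 of 30 alternative settings and Sh3bgr in 29 of 29. Unc13c stayed inside in 27 of 30: it fell outside without XXF replicate 3 (0.0753), without XXM replicate 3 (0.0521) and with limma on the deposited log2 values (0.0556). In 23 of these settings only 1 library was left out. All of them reuse the libraries and the contrast that chose the genes, so these counts describe the choice and test nothing.

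The effect of the gonads asks whether testes and the Sry transgene, rather than the sex chromosomes, go with the level of these genes. None of the 4 passed the Benjamini-Hochberg adjusted quasi-likelihood test of edgeR, in which 0.160% of all genes were called. By DESeq2 and by limma voom 0 of 4 passed too, and by each of the 3 tools 1 of 4 had an unadjusted p under 0.05, against 13.6% of all genes by edgeR. That gene was Tdo2, at 0.34 log2 higher with testes (SE 0.13, 95% interval 0.07 to 0.61, edgeR adjusted p 0.258). Its exact permutation p over the 426888 assignments of gonad labels within XX and within XY was 0.0277, two-sided and not adjusted for the 4 genes. The Tdo2 value was 0.47 within XX (edgeR interval 0.07 to 0.87, adjusted p 0.633) and 0.22 within XY (adjusted p 0.729), comparisons in which edgeR called 0% and 0.225% of all genes.

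For the other 3 genes the gonad intervals in edgeR's fit covered 0. Net1 was at -0.10 (95% interval -0.22 to 0.03, adjusted p 0.474), Sh3bgr at 0.16 (-0.21 to 0.53, adjusted p 0.725) and Unc13c at -0.02 (-0.25 to 0.21, adjusted p 0.947). The exact permutation p, two-sided and not adjusted, were 0.0984, 0.274 and 0.907 in the same order. The Unc13c interval lies inside the size of its own XY minus XX value in either direction. The Net1 interval does too, and for Sh3bgr the upper limit of 0.53 is below its XY minus XX value of 1.02. Those XY minus XX values chose the genes and may be too large for that reason, so they are a loose measure. Within XX alone Sh3bgr was at 0.48 with testes (-0.08 to 1.05, edgeR adjusted p 0.679) and within XY at -0.16 (adjusted p 0.866). Blood genes, which were lower with testes within XY (3 of 3 measured called by edgeR, median -1.08), and interferon genes (9 of 9 called, median -1.24) moved with the gonads there, and their part in these values was not tested.

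The interaction asks whether the gonad effect differs between XY and XX mice. None of the 4 genes passed, by edgeR, DESeq2 or limma voom, and none had an unadjusted p under 0.05 by any of them. Of all 13766 genes 0% were called by edgeR, with 444 (3.23%) at an unadjusted p under 0.05. Sh3bgr had the largest difference of the 4, at -0.65 (95% interval -1.39 to 0.10, edgeR unadjusted p 0.0866, adjusted p 0.999), its XY minus XX value being 1.34 with ovaries and 0.70 with testes. Tdo2 was at -0.25 (-0.79 to 0.29), Net1 at -0.10 (-0.35 to 0.14) and Unc13c at 0.00 (-0.46 to 0.46). For Tdo2 and Sh3bgr the lower limit, -0.79 and -1.39, reaches past the size of the gene's XY minus XX value, 0.66 and 1.02. An XY minus XX value smaller by that much with testes than with ovaries thus lies inside the interval. The upper limits, 0.29 and 0.10, stop short of that size. For Unc13c and Net1 the interval stops short of the size of theirs, 0.54 and 0.36, in either direction, by little for Net1. The sizes used here are again those that chose the genes and may be too large.

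**Figure D2:**
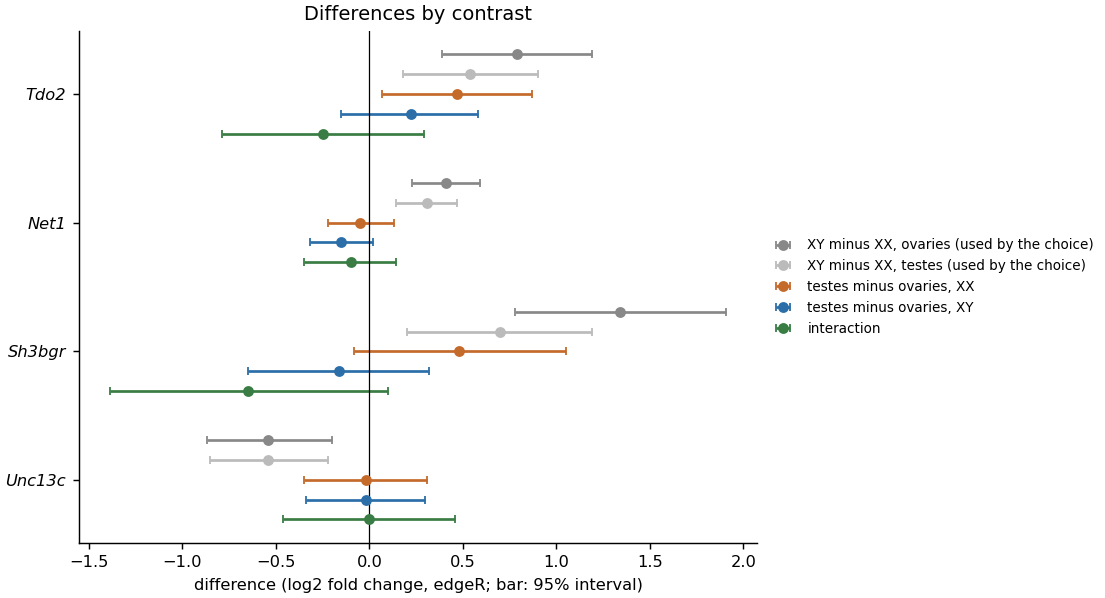
Log2 differences with 95% intervals from edgeR's fit for each gene: XY minus XX (with ovaries, with testes), testes minus ovaries (within XX, within XY) and the interaction. Of the gonad intervals only that of Tdo2 within XX is clear of 0, where the edgeR adjusted p is 0.633. Every interaction interval covers 0.

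The other genes of each pathway were read from lists, as counts called in each direction beside all genes. For XY minus XX the median over all genes was 0.00, and 6.78% of them had an unadjusted p under 0.05 by edgeR. Of the kynurenine and tryptophan list 12 of 21 genes were analysed, and the downstream enzymes Kmo, Kynu and Haao and the parallel enzyme Ido1 were not analysed here. None of the 12 was called for XY against XX by edgeR, DESeq2 or limma voom, and by edgeR 0 had an unadjusted p under 0.05. Their median was 0.01, from Afmid, the formamidase that acts on the product of Tdo2, at -0.19 to Tph2, the neuronal tryptophan hydroxylase, at 0.20. Ido2, a second enzyme for the same first step, was at 0.01 with a level of 2.29 CPM over all libraries.

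Of the vesicle priming list all 23 genes were analysed and none was called for XY against XX by edgeR, DESeq2 or limma voom, with 5 at an unadjusted p under 0.05 by edgeR. The median was -0.02, from Rims3 at -0.19 to Baiap3, a relative of the Munc13 proteins, at 0.19. The other Munc13 genes were at 0.02 for Unc13a, 0.06 for Unc13b and 0.18 for Unc13d. By CPM per kb, Unc13a made up 82.6% of the summed RNA of the 4 Unc13 genes, and Unc13c 12.0 ± 1.97% in XX (SD, n = 11) and 8.52 ± 2.22% in XY libraries (n = 12). For the gonad effect 0 of 23 were called by edgeR and limma voom and 1 by DESeq2, with 4 at an unadjusted p under 0.05 by edgeR, Rims1 being the nearest to the threshold at 0.18 (edgeR adjusted p 0.0727).

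Of the list for RhoA signalling 20 of 23 genes were analysed and none was called for XY against XX by the 3 tools, with 3 at an unadjusted p under 0.05 by edgeR. The median was -0.03, from Limk1, a kinase of the actin regulator cofilin, at -0.13 to the exchange factor Arhgef25 at 0.11. Of the 20 genes 16 were below 0 and 4 above, while 7002 of all 13766 genes were above 0. Arhgef3, the closest relative of Net1, was at -0.06. Of the Sh3bgr family and thioredoxin-fold list all 10 were analysed, 0 were called by the 3 tools and 1 had an unadjusted p under 0.05 by edgeR. The median was -0.02, with Txnrd1, a thioredoxin reductase, lowest at -0.12. The paralogues of Sh3bgr were at 0.06 for Sh3bgrl, -0.09 for Sh3bgrl2 and 0.01 for Sh3bgrl3. For XY minus XX 5 of 12 kynurenine, 15 of 23 vesicle priming and 6 of 10 thioredoxin-fold genes were below 0. For the gonad effect 0 genes of the kynurenine, RhoA and thioredoxin-fold lists were called by the 3 tools. By edgeR 2 of 12, 6 of 20 and 1 of 10 had an unadjusted p under 0.05, against 13.6% of all genes.

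**Figure D3:**
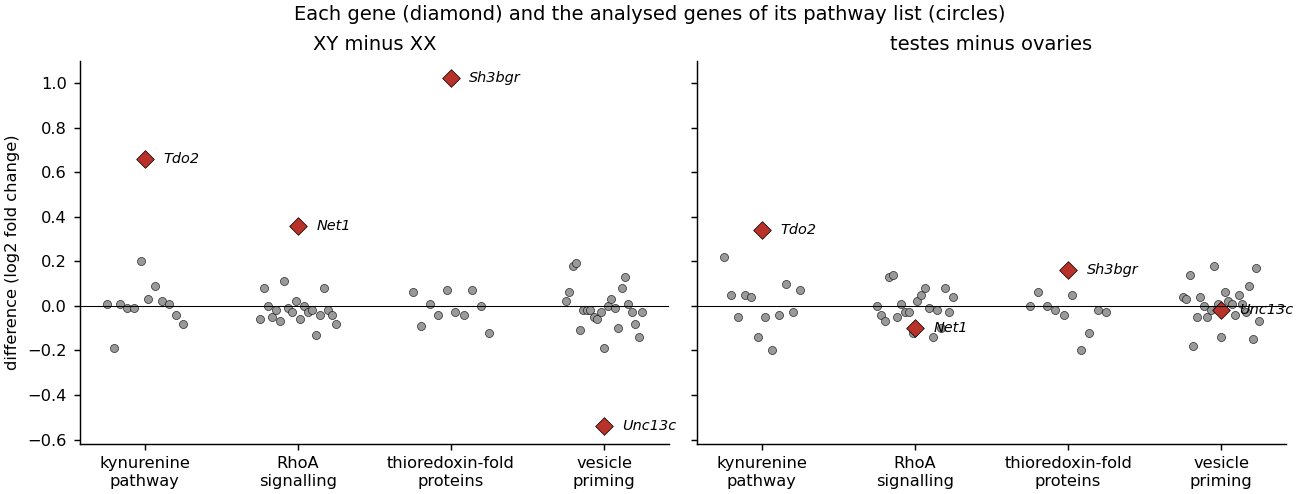
Log2 differences, XY minus XX and testes minus ovaries, of each gene of the 4 pathway lists beside the member each list was made for. For XY minus XX list genes lie between -0.19 and 0.20. The members, chosen on this difference, are at 0.66 (Tdo2), -0.54 (Unc13c), 0.36 (Net1) and 1.02 (Sh3bgr). For testes minus ovaries list genes lie between -0.20 and 0.22, and the members are at 0.34, -0.02, -0.10 and 0.16 in the same order.

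The nearest genes on the chromosome were read to see whether each difference ran along its region. Of 38 analysed neighbours, up to 5 on each side, 0 were called by edgeR for XY against XX, 4 had an unadjusted p under 0.05, and 36 were within 0.25 log2 of 0. Tdo2 lay between Ctso at -0.01 and Gucy1b3 at 0.02, and Unc13c between Rsl24d1 at 0.01 and Gm16551 at -0.14. Net1 lay between Asb13 at -0.02 and Akr1c14 at 0.01. Sh3bgr lay between Lca5l at 0.23 and B3galt5 at 0.05. Among the next neighbours of Sh3bgr, Mx2, an interferon-induced GTPase, was at 0.91 with an edgeR adjusted p of 0.278. Onecut1, a transcription factor gene among the neighbours of Unc13c, was at -0.32 with an adjusted p of 0.874. Both were singled out after their values were seen.

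**Figure D4:**
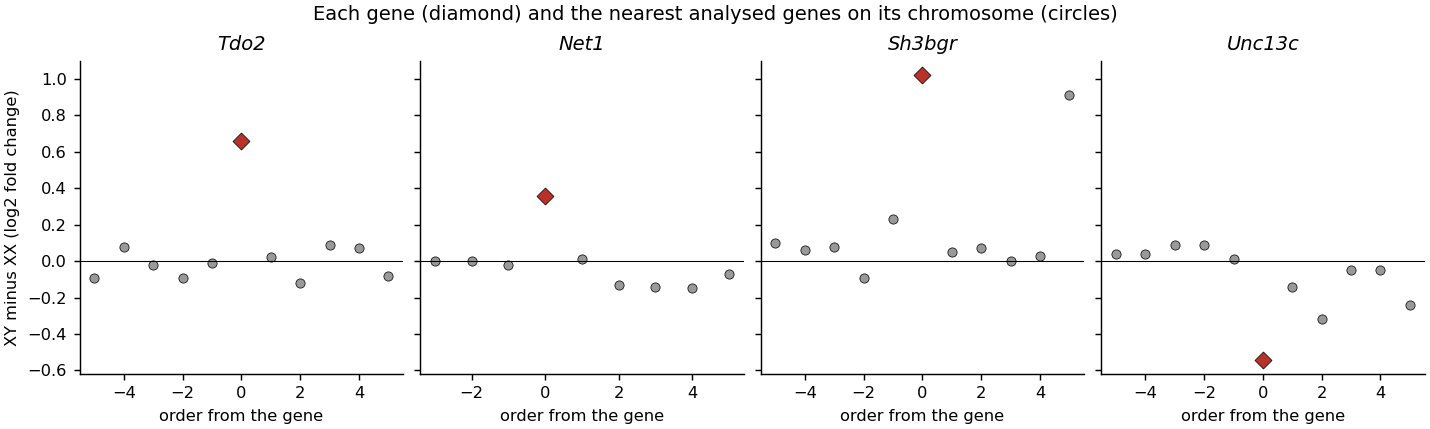
XY minus XX log2 difference of each member and of the analysed genes next to it, in order along the chromosome. Of 38 neighbours 36 lie within 0.25 of 0, and the other 2 are Mx2 at 0.91 near Sh3bgr and Onecut1 at -0.32 near Unc13c; the members were chosen on this difference.

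The genes most like each member over all 23 libraries, by Pearson r of log2 CPM, were named as a description, since the members' own difference between XX and XY enters r. For Net1 these were Tlr7 (r = 0.84), Msl3 (0.78) and Gbp3 (0.78). Tlr7, a receptor for single-stranded RNA, and Msl3 lie in the distal X chromosome, were 1.07 and 0.95 log2 higher in XY libraries, and cannot be told apart from the sex chromosome complement here. For Unc13c they were Vwc2l (0.86), Dsc3 (0.83) and Satb1 (0.81), for Tdo2 Rwdd3 (0.80) and Pkp2 (0.75), and for Sh3bgr Susd1 (0.85), Rwdd3 (0.75) and Upf3b (0.73).

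After each group's mean was taken off, which removes the XX and XY difference, Unc13c and Sh3bgr each kept 1 of their 3 genes and Net1 none. Unc13c was again closest to Vwc2l (r = 0.84), then to Cplx3, a complexin of the synapse (0.80), and Fhod3 (0.79). For Tdo2 these were Evi2a (0.78) and Iyd (0.77), and for Net1 Acot11 (0.72), Msh6 (0.72) and Tef, a clock-controlled transcription factor (0.70). For Sh3bgr the highest were Atoh8 (0.78), Susd1 (0.74) and Cml5 (0.73), with Spearman rho of 0.33, 0.26 and 0.47. These are the top of the correlations with all other genes in the table and were not tested.

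Between the members themselves, with group means taken off, none of the 6 pairs passed: permutation within groups, with Benjamini-Hochberg adjustment over the 6, gave adjusted p from 0.779 to 0.949. The strongest was Unc13c with Net1 at r = 0.33. Mice of 1 group with more Tdo2 did not have detectably more Sh3bgr (r = 0.02, and -0.20 without the 2 libraries farthest from the median of Tdo2).

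Markers of hippocampal subfields and of other cell types were scored as the mean log2 CPM of each list and set beside the members, with group means taken off, in 72 pairs over 23 libraries. The 18 scores of these pairs include the interferon response list and the log2 library total, a measure of depth. By permutation within groups 0 of 72 Pearson correlations passed adjustment and 5 had an unadjusted p under 0.05. Unc13c went with the 4 subiculum markers Fn1, Nts, Rxfp1 and Slc17a6, with r = 0.59 (permutation p 0.00711, adjusted 0.365), and r = 0.66 without the 2 libraries farthest from the median. Its Spearman rho was 0.73 (permutation p 0.000140, adjusted 0.0101). It ran against the dentate granule cell score, with r = -0.50 (permutation p 0.0361, adjusted 0.541, -0.29 without the 2 farthest). Tdo2 went the other way, with r = 0.47 for the dentate score (permutation p 0.0313, adjusted 0.541, 0.35 without the 2 farthest) and r = -0.54 for the subiculum score (permutation p 0.0101, adjusted 0.365, -0.37 without them), and r = -0.45 for the thalamus score (permutation p 0.0479, adjusted 0.541). Over all 23 libraries Pearson r ran from -0.35 to 0.34 for Net1 and from -0.32 to 0.41 for Sh3bgr. The Sh3bgr value of 0.41 was with the library total, and its highest with a marker score was 0.31, for thalamus. Some values were larger without the 2 farthest libraries, at 0.54 for Net1 with the astrocyte score, and at 0.55 with the dentate and -0.43 with the CA1 score for Sh3bgr. Unc13c moved from 0.16 to 0.48 with the microglia score, from 0.16 to 0.42 with the astrocyte score and from -0.10 to 0.36 with the thalamus score. No p was computed for the values without the 2 farthest libraries.

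**Figure D5:**
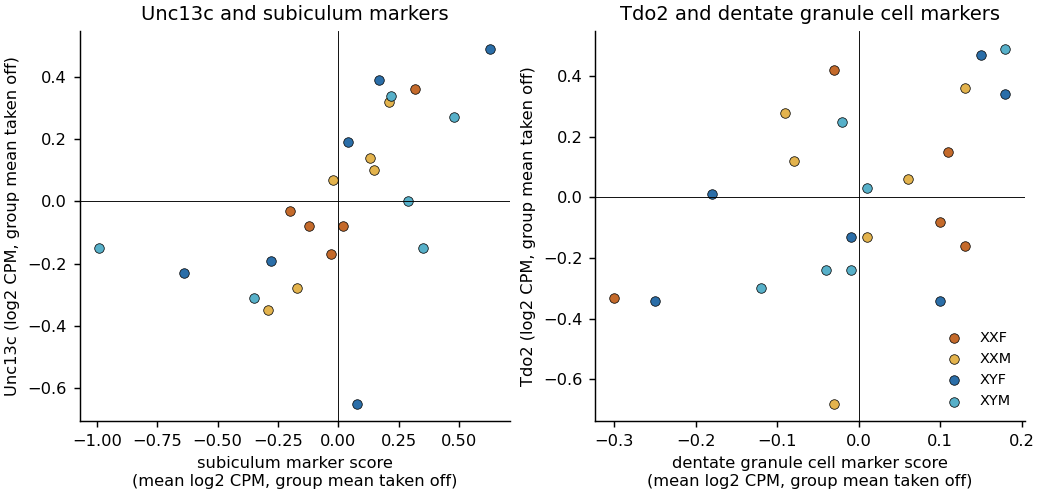
Members against marker scores, both as log2 CPM with the group mean taken off, 1 point per library. Unc13c with the subiculum score has r = 0.59 and Tdo2 with the dentate granule cell score r = 0.47, and neither Pearson correlation passed adjustment over 72 pairs.

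The same lists, in XY against XX libraries, stand beside the members' differences, and their part in those differences was not tested. Of all 13766 genes 7002 were above 0 in this comparison and 6.78% had an unadjusted p under 0.05 by edgeR. Dentate granule cell markers summed to 544 to 776 CPM in XX and 592 to 826 in XY libraries, with 9 of 10 genes above 0, a median of 0.11 and 0 called by edgeR (4 at an unadjusted p under 0.05). Subiculum markers summed to 90.0 to 133 CPM in XX and 62.0 to 135 in XY libraries, with 4 of 4 below 0, a median of -0.23 and 0 called (1 at an unadjusted p under 0.05). CA1 pyramidal cell markers summed to 684 to 802 CPM in XX and 613 to 751 in XY libraries, with a median over 6 genes of -0.08, 0 called and 3 at an unadjusted p under 0.05. Those 3 were Wfs1 at -0.34 (edgeR adjusted p 0.0785), Pou3f1 at -0.14 and Mpped1 at -0.14. The CA2 and CA3 median over 9 genes was 0.00, with 0 called and 0 at an unadjusted p under 0.05. For the gonad effect the dentate markers had a median of 0.18, beside the Tdo2 value of 0.34. Of the 10 dentate markers 9 were above 0, against 6745 of all 13766 genes. By edgeR 6 of them had an unadjusted p under 0.05, against 13.6% of all genes, and 0 were called. The part of the dentate markers in the Tdo2 value was not tested.

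Cerebellum, where Unc13c is best known, could be read from 2 markers, Cbln1 and Car8, which summed to 8.18 to 23.5 CPM in XX and 7.33 to 18.7 in XY libraries with a median of -0.30. The defining granule cell marker Gabra6 was not analysed here. Choroid plexus markers varied most, from 68.3 to 2581 CPM in XX and 55.2 to 3307 in XY libraries, with a median of -0.51 that joins 0.49 with ovaries (7 of 7 genes above 0) and -1.50 with testes (7 of 7 below 0). The blood median was 0.27, from 0.67 with ovaries and -0.13 with testes, and that of ependyma 0.20, from 0.38 and -0.04. The striatum median was -0.15, that of neocortex -0.08 and that of thalamus 0.04. Endothelium, mural cells, microglia, astrocytes, oligodendrocytes and interneurons had medians of 0.02, -0.01, 0.02, -0.03, -0.07 and -0.05. None of these genes was called by edgeR for XY against XX.

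The interferon response list, itself chosen with results of these data known, had 9 of 9 measured genes called higher in XY libraries by edgeR, with a median of 1.03. With ovaries 9 were called, of 0.291% of all genes, at a median of 1.35, and with testes 0, of 0.116% of all genes, at a median of 0.46 and with 3 at an unadjusted p under 0.05, against 5.29% of all genes. It summed to 51.3 to 66.9 CPM in XX and 56.8 to 157 in XY libraries. With group means taken off, the interferon score had r = -0.15 with Tdo2, 0.06 with Unc13c, 0.34 with Net1 and -0.20 with Sh3bgr, none with an unadjusted permutation p under 0.05. Beside these medians of 1.35 with ovaries and 0.46 with testes, XY minus XX was 1.34 and 0.70 for Sh3bgr, 0.79 and 0.54 for Tdo2, 0.41 and 0.31 for Net1, and -0.54 with either gonad for Unc13c. The part of the interferon response in these values was not tested. Correlations with the log2 library total, a measure of depth, were 0.20 for Tdo2, -0.15 for Unc13c, 0.04 for Net1 and 0.41 for Sh3bgr.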

How the data were processed

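RNA of 23 hippocampi was measured, 1 library per animal. Per the labels' protocols, 500 ng of RNA, depleted of ribosomal RNA, went into each strand-specific library, and both ends were read for 100 bases. The deposited table holds estimated counts per gene, per the file headers raw values that need not be whole. A gene is listed if 100% of the libraries in 1 or more groups reach a raw value of 20. It also holds log2 values that the authors normalized, used for an alternative test. The submitters' processing notes name DESeq and mm10. The aligner and the counting program, with its use of strand, were not given in the sources used here.

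Estimated counts were rounded to whole numbers, scaled by the trimmed mean of M-values and tested with edgeR 4.0.16 in R 4.3.3, fitting 4 group means and 1 shared spread. Calls needed an adjusted p under 0.05 (Benjamini-Hochberg, 13766 genes). DESeq2 1.42.0 and limma 3.58.1 were alternatives, as were other scalings and filters, covariates and leaving out each library. CPM used the normalized total, and log2 CPM in correlations a prior count of 2. Exact or 100000-draw permutations were made within groups or within sex chromosome labels. The steps were tested on simulated data.

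The 4 genes, the gene lists and the alternatives were chosen with earlier results of these data known. The text names every called gene of a pathway list, the closest paralogues, the 2 list genes with the largest XY minus XX difference, the 3 genes most like each member (for Tdo2, 1 of them is not reported here), the nearest neighbours and the genes beside the threshold. List genes not analysed here were Aadat, Acmsd, Haao, Ido1, Kmo, Kynu, Naprt, Qprt, Tph1, Arhgap35, Diaph1, Ect2, Lamp5, Kcne2, Acta2, Hbb-bs, Hbb-bt, Ifi44, Cbln3, Fat2, Gabra6 and Pcp2. Replicate numbers follow the order of the samples and only name libraries.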

Additional observations from a re-analysis of the deposited data

Results flagged for a closer look

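In XXF, replicate 3 had 55.7 CPM of Unc13c, with an exact binomial 95% interval of 52.3 to 59.2 CPM that covers counting error only, while the other 4 XXF libraries lay between 38.4 and 42.3 CPM. Its gap to the nearest library was 0.774 of the group's range, past the 0.710 of Dixon's test for 5 libraries. It was 1 of 16 groups of values tested, and chance marks about 1 in 20. Without this library the adjusted p that chose Unc13c, by the Benjamini-Hochberg adjusted quasi-likelihood test of edgeR, was 0.0753 in place of 0.0222.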

How the results depend on the processing

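No paired analysis was possible because each library comes from an animal with its own number and the labels give no replicate numbers that groups share. The number of genes called for XY against XX was 39, and 59 with a covariate for the choroid plexus score and 60 by DESeq2. The number called for the gonads was 22, and 42 with the choroid plexus score, 13 with the log2 library total as a covariate and 98 by DESeq2, and of the vesicle priming list 1 gene, Rims1, was called for the gonads with the choroid plexus score and by DESeq2. The Unc13c gonad effect, -0.02, turned to 0.01 with the choroid plexus score, 0.03 with the library total and 0.01 by limma voom, and its interaction to -0.06 and -0.01 with the 2 covariates. The Sh3bgr gonad effect, 0.16, was 0.04 with the library total and 0.27 by limma on the deposited log2 values (adjusted p 0.957 and 0.584). The correlation of Tdo2 with Sh3bgr was -0.20 without the 2 farthest libraries. Leaving out 1 library at a time gave gonad effects of 0.29 to 0.41 for Tdo2 (edgeR adjusted p 0.206 to 0.404), -0.13 to -0.07 for Net1, 0.07 to 0.22 for Sh3bgr and -0.07 to 0.03 for Unc13c, and interactions of -0.38 to -0.14, -0.16 to -0.05, -0.83 to -0.54 and -0.10 to 0.10 in the same order. The XY minus XX values ran from 0.61 to 0.73 for Tdo2, 0.33 to 0.38 for Net1, 0.97 to 1.11 for Sh3bgr and -0.59 to -0.48 for Unc13c. Genes called ranged from 34 to 48 for XY against XX, 17 to 85 for the gonads and 0 to 3 for the interaction. The gonad count was 85 without XXF replicate 5, 49 without XYM replicate 1, 42 without XYF replicate 1 and 34 without XYF replicate 5, and the interaction count 3 without XYM replicate 1 and 1 without XYF replicate 1. In the pathway lists 0 to 1 vesicle priming genes (Rims1, without XXF replicate 5 and without XYM replicate 1) and 0 to 1 kynurenine genes (Slc7a5, an amino acid transporter, without XYM replicate 1) were called for the gonads. With a minimum of 50 counts Sh3bgr was not tested. The causes of these changes were not tested. At 6 to 86 counts per library, Sh3bgr is the member that depth limits most.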
